A study of Mus musculus with 10 samples.

Results

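The 10 transcripts described here mark T cells and cytotoxic lymphocytes. They are the CD3 chains of the T cell receptor complex (Cd3e, Cd3d and Cd3g), the coreceptors (Cd4, Cd8a and Cd8b1) and the genes of the cytotoxic granule (Gzma, Gzmb, Nkg7 and Prf1). They were chosen by symbol, as a list of lineage genes, and are 10 of 48897 rows in each of 2 RNA-seq tables. The first table holds RPKM (read numbers corrected for the length of the gene and the size of the library) of EpCAM+ CD45- cells sorted from prostates of 3-month-old C57BL/6 mice. It has 3 control libraries, from mice with no Arid1a deletion, and 3 from mice with Arid1a deleted in the prostate (Arid1a PC-/-), labelled Arid1a KO. All of these mice were genetically engineered, so the controls are not wild type. The Cre was driven by Probasin, a promoter active in prostate epithelium, and lymphocytes were not the cells targeted in either genotype. The second table holds TPM (scaled by gene length and to the same sum in each library) of Myc-CaP, a prostate cancer line of FVB background from a mouse with a c-Myc transgene, with 2 empty vector (EV) libraries and 2 labelled Arid1a KO. It serves as a reference without leukocytes.

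A T cell recognises antigen through a receptor made of a pair of variable chains, which cannot signal alone. The CD3 chains and CD247 carry the signal into the cell, CD4 or CD8 binds the presenting MHC molecule, and the kinase LCK, which rides on both coreceptors, starts the cascade. CD8 T cells and natural killer (NK) cells kill by releasing granules, in which perforin (Prf1) opens the way for granzymes (Gzma, Gzmb), while NKG7 is a membrane protein of those granules. CD45, encoded by Ptprc, is found on nearly all leukocytes, and the sort was set to leave CD45+ cells out.

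In the sorted cells every one of the 10 transcripts was detected in every library, at low levels, and they did not move together. In the libraries labelled Arid1a KO, Cd4 was 2.01-fold higher in mean RPKM, Cd3e 1.45-fold, Cd8b1 1.47-fold and Gzmb 1.34-fold, while Nkg7 stood at 0.378 of its control mean. Cd3d, Cd3g, Cd8a and Gzma overlapped between the genotypes and did not pass the test. Thus 5 of the 9 members tested passed (4 higher and 1 lower), which is 55.6%, and 57.1% of all 16275 genes tested passed as well (27.5% higher and 29.6% lower). The same 5 of the 9 had groups that did not overlap, as did 66.7% of all genes tested (32.4% higher and 34.4% lower). At the study's thresholds, an unadjusted p under 0.05 and a change of 1.5-fold, Cd4 and Nkg7 passed, and 24.8% of all genes tested did. The members' share of calls is near that background and is no result about them, so the values of each gene, and their ratios inside a library, are what follows. The median log2 difference was 0.14 over the 9 members and -0.03 over all genes tested. The test was limma on log2(RPKM + 1) with Benjamini-Hochberg adjustment over all genes tested, and a log2 difference on that scale understates the change of low genes. In bulk libraries, fewer cells of a type and less RNA per cell cannot be told apart.

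The promoters of 5 members are shown because they include the 3 CD3 genes, of which 1 rose, and the granule genes that moved in opposite directions. They are RefSeq sequence on GRCm38.p6, from 250 to 71 bases before each listed start, read 5′ to 3′ on the strand of the gene. Capitals mark matches on either strand to TGTGGT, the core letters bound by RUNX factors, to GGAAGT, an ETS core, or to TGACGT, core letters of the cAMP response element. RUNX and ETS factors are known regulators of T cell and NK cell genes.
Cd3e: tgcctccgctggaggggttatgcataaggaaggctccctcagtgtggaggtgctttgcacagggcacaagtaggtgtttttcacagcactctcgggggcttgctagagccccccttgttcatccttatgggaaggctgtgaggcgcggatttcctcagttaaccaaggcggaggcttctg
Cd3d: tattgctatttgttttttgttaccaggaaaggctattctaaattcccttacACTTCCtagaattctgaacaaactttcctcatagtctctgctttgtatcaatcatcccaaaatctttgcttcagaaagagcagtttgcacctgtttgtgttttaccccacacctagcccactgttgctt
Cd3g: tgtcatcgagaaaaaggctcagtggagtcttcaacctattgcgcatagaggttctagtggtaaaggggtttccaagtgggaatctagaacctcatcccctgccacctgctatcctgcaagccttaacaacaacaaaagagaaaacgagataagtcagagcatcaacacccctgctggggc
Gzmb: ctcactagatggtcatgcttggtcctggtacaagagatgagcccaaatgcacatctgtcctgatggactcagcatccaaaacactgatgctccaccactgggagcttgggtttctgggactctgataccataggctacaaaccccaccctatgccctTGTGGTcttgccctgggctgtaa
Nkg7: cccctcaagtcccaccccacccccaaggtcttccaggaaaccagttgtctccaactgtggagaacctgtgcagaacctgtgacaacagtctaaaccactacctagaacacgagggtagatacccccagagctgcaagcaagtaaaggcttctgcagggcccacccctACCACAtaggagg
These windows lie at chr9:45009682-45009861 (minus strand), chr9:44981536-44981715 (plus), chr9:44980502-44980681 (minus), chr14:56262405-56262584 (minus) and chr7:43436888-43437067 (plus), in the order printed, and no annotated exon overlaps them. Gzmb and Nkg7 each held 1 RUNX core and Cd3d held 1 ETS core, while Cd3e and Cd3g held none of the 3 motifs in this window. Over the 8 members with a listed promoter, the RUNX core was in 3, the ETS core in 2 and the cAMP core in 1. Among all 32851 listed promoters of that length the shares were 10.4%, 12.9% and 3.28%. Promoters of Cd4 and Cd8b1 were not analysed here.

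Positions are those of GENCODE M21 on GRCm38. Cd3g (chr9:44969572-44980431), Cd3d (chr9:44981786-44987339) and Cd3e (chr9:44998740-45009627) are neighbours, and Cd8b1 (chr6:71322788-71337494) lies next to Cd8a (chr6:71373427-71379173). Cd4 is at chr6:124864692-124888221, Gzma at chr13:113093825-113100981, Gzmb at chr14:56258838-56262260, Nkg7 at chr7:43437073-43438249 and Prf1 at chr10:61297833-61304680. Cd3e overlaps the annotated genes Gm48719 on the other strand and Gm48720 on its own. How reads shared with Gm48720 were counted is not given, so the effect of the overlap on Cd3e is not known. Of the 3 neighbours in the CD3 locus, Cd3e passed the test and Cd3d and Cd3g did not.

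The RPKM values are whole multiples of the worth of 1 read, which gave the reads behind each value, assuming that the smallest step is 1 read. The epithelium libraries then held 27499344 to 34208547 reads over genes and the Myc-CaP libraries 17913042 to 20141487. The targeted gene did not follow the labels in the sorted cells. Arid1a was 27.8, 21.9 and 26.5 RPKM in controls A, B and C, and 31.1, 28.8 and 30.8 RPKM in the libraries labelled Arid1a KO, a log2 difference of 0.25 ± 0.094 (SE, limma adjusted p = 0.054), whereas in Myc-CaP it was lower in the KO libraries (39.5 and 40.3 TPM against 60.5 and 61.0 TPM, log2 difference -0.59 ± 0.058, adjusted p = 0.0102). Gene-level values do not separate exons, so a deletion of part of Arid1a was not tested by them, and every direction in the epithelium below is that of the library labels. When each library was scaled to 1 common sum, the median log2 difference over all genes went from -0.03 to 0.11 and the share of calls that were higher from 48.1% to 64.9%. All 5 calls among the members passed under that scaling too.

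Of the CD3 chains, 1 of 3 rose. Cd3e, the epsilon chain that pairs with either of the others, was 4.18, 3.61 and 5.01 RPKM in controls A, B and C, and 6.06, 6.10 and 6.40 RPKM in KO libraries A to C. All 3 KO libraries lay above all 3 controls and within a narrow band. The log2 difference was 0.46 ± 0.104 (SE, n = 3 and 3, limma adjusted p = 0.00721), on 188 to 237 reads in controls and 276 to 280 in KO libraries. Cd3d, the delta chain, was 2.66, 2.06 and 2.27 RPKM in controls and 2.17, 3.46 and 2.46 RPKM in KO libraries. The groups overlapped, with KO library B highest and the other KO libraries inside the control range, and the log2 difference of 0.14 ± 0.14 did not pass (limma adjusted p = 0.417). Without KO library B it was -0.0033. Cd3g, the gamma chain, was 8.61, 5.87 and 7.18 RPKM in controls and 6.10, 5.84 and 6.99 RPKM in KO libraries. Control library A was highest, the remaining values were mixed, and the log2 difference of -0.16 ± 0.129 did not pass (limma adjusted p = 0.319).

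The 3 chains are built into 1 complex, and their proportions can be compared inside a library. The ratio of Cd3g to Cd3e, taken within a library, is free of any factor that scales a whole library. It was 2.06, 1.63 and 1.43 in controls and 1.01, 0.957 and 1.09 in KO libraries. Every KO library was below every control. A shift between libraries that depends on gene length would remain in the ratios given here, and it was not removed from them. The ratio of Cd3d to Cd3e overlapped, at 0.635, 0.570 and 0.453 in controls and 0.359, 0.567 and 0.384 in KO libraries. For each ratio an exact two-sided permutation test of 3 libraries against 3 cannot go below p = 0.1, which is what every non-overlapping ratio here gives. Of the tested genes, 62.1% had a lower ratio to Cd3e in all 3 KO libraries and 8.77% a higher one, so a lower ratio to Cd3e was common and is no result about Cd3g.

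**Figure D1:**
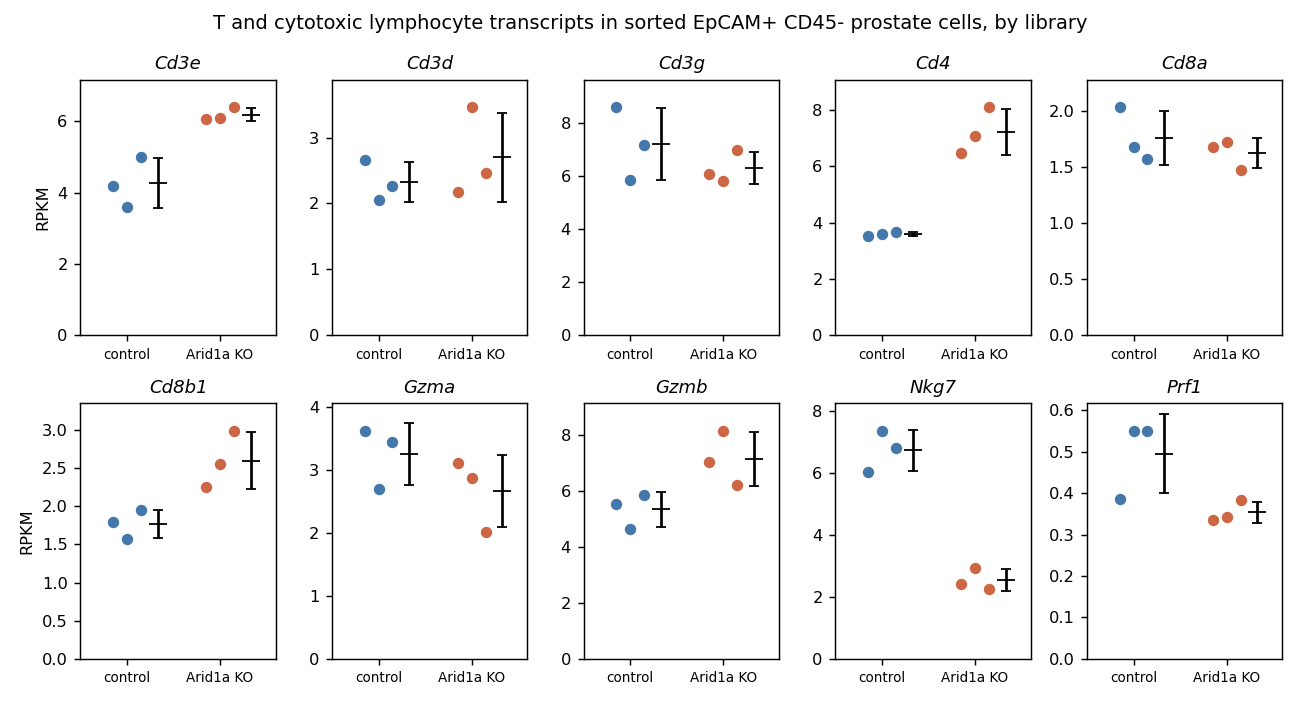
RPKM of each of the 10 genes (vertical axis, from 0) in the 3 control and 3 Arid1a KO epithelium libraries; points are libraries A, B and C from left to right, and the bar is the mean ± SD. Cd3e, Cd4, Cd8b1 and Gzmb lie higher and Nkg7 lower in the KO libraries without overlap, and Prf1 stays under 0.6 RPKM throughout.

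Among the coreceptors, Cd4 had the largest rise of the 10 genes. CD4 marks helper and regulatory T cells and is also carried by some dendritic cells and macrophages. Cd4 was 3.52, 3.59 and 3.67 RPKM in controls A, B and C, and 6.48, 7.07 and 8.11 RPKM in KO libraries. The controls nearly coincided, and the lowest KO library was well above them. The log2 difference was 0.84 ± 0.088 (SE, limma adjusted p = 0.00022), on 362 to 452 reads in controls and 685 to 811 in KO libraries.

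The CD8 chains did not move alike. Cd8a, the alpha chain, which some dendritic cells also make without the beta chain, was 2.04, 1.68 and 1.58 RPKM in controls and 1.68, 1.73 and 1.48 RPKM in KO libraries. These groups overlapped, with a log2 difference of -0.07 ± 0.096 (limma adjusted p = 0.544) that turned to 0.04 when libraries were scaled to the same sum. Cd8b1, the beta chain, which is largely kept to T cells that carry the alpha-beta pair, was 1.79, 1.58 and 1.95 RPKM in controls and 2.25, 2.56 and 2.99 RPKM in KO libraries. All KO libraries were above the controls, and the log2 difference was 0.38 ± 0.104 (limma adjusted p = 0.0171), on 75 to 86 and 97 to 122 reads. The Cd8b1 call was lost without KO library C (adjusted p = 0.0503) and when genes of every level were tested (0.0521).

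Ratios between the coreceptors inside a library are given next. The ratio of Cd8a to Cd4 was 0.579, 0.469 and 0.430 in controls and 0.259, 0.244 and 0.182 in KO libraries, or 0.464-fold. All KO libraries lay below the controls, because Cd4 was higher and Cd8a was not. The ratio of Cd8b1 to Cd8a was 0.877, 0.937 and 1.23 in controls and 1.34, 1.48 and 2.03 in KO libraries, again without overlap. Shares of all tested genes with a non-overlapping ratio to Cd4 or Cd8a were not computed. These shifts are therefore not shown to be particular to the coreceptors. Cd8b1 relative to Cd3e did not differ beyond its spread (0.418 ± 0.025 in controls and 0.419 ± 0.048 in KO libraries, SD, n = 3 each), whereas Cd4 relative to Cd3e was higher in all 3 KO libraries, by 1.36-fold. Of all tested genes, 8.77% had a higher ratio to Cd3e without overlap.

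The granule genes split. Nkg7 was 6.02, 7.35 and 6.79 RPKM in controls A, B and C, and 2.42, 2.93 and 2.26 RPKM in KO libraries. The highest KO library was under the lowest control by a wide gap. The log2 difference was -1.13 ± 0.103 (SE, limma adjusted p = 0.00012), on 145 to 217 reads in controls and 53 to 71 in KO libraries. Cd4 and Nkg7 were the 2 members that passed under all 16 alternatives. Cd3e passed under 15 of them and missed only the study's threshold of 1.5-fold.

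Gzmb, granzyme B, the protease that triggers death of target cells, went the other way. It was 5.52, 4.64 and 5.84 RPKM in controls and 7.04, 8.14 and 6.22 RPKM in KO libraries. The groups did not overlap, but KO library C and control library C were close. Its log2 difference was 0.36 ± 0.112 (SE, limma adjusted p = 0.0275), and the call was lost without control library A (adjusted p = 0.0514), control library B (0.0707), KO library A (0.0645) or KO library B (0.0916), and when genes of every level were tested (0.0634). Gzma, granzyme A, was 3.62, 2.70 and 3.43 RPKM in controls and 3.11, 2.87 and 2.02 RPKM in KO libraries. KO library C was lowest, with the groups overlapping and a log2 difference of -0.22 ± 0.141 (limma adjusted p = 0.215).

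Prf1, the pore-forming protein, was the lowest member and its mean of all libraries lay under the minimum of 0.5 RPKM for the test. It was 0.386, 0.550 and 0.550 RPKM in controls and 0.335, 0.342 and 0.382 RPKM in KO libraries, and all KO values were under the controls, the highest of them only just. These values rest on 28, 49 and 42 reads and on 25, 25 and 27 reads. In a limma-voom fit of the recovered reads, an alternative chosen after seeing the data, the log2 difference was -0.49 ± 0.30 and did not pass (adjusted p = 0.181).

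Summed by role, the CD3 chains came to 11.5 to 15.5 RPKM in controls and 14.3 to 15.9 RPKM in KO libraries, which overlap. The coreceptors summed to 6.84 to 7.35 and 10.4 to 12.6 RPKM, without overlap. Cd4 was the largest part of that sum (means of 3.59 and 7.22 RPKM), Cd8b1 rose as well and Cd8a did not. The granule genes summed to 15.2 to 16.6 and 10.9 to 14.3 RPKM, but their reads overlapped (499 to 591 and 385 to 515), and the sum joins Nkg7, which fell, with Gzmb, which rose. All 10 genes together summed to 33.6 to 38.4 RPKM in controls and 37.7 to 41.0 RPKM in KO libraries, which overlap. In RPM, which scales reads to library size and not to gene length, the totals were 53.9 to 60.6 and 68.1 to 74.6, without overlap, so whether they part depends on the unit. Cd4 held the most reads, 1211 over the control libraries and 2227 over the KO libraries, and reads of the other members went both ways. The order of levels differed as well. In controls it ran from Cd3g and Nkg7, which overlap, through Gzmb, Cd3e, Cd4 and Gzma, each overlapping the next, to Cd3d, then Cd8b1 and Cd8a, which overlap, and Prf1. In KO libraries Cd4, Gzmb, Cd3g and Cd3e came first with each overlapping the next, followed by Cd3d, Gzma, Cd8b1 and Nkg7, likewise overlapping, then Cd8a and Prf1. Nkg7 thus stood at rank 2 of 10 in controls and rank 8 in KO libraries, and Cd4 at rank 5 and rank 1.

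**Figure D2:**
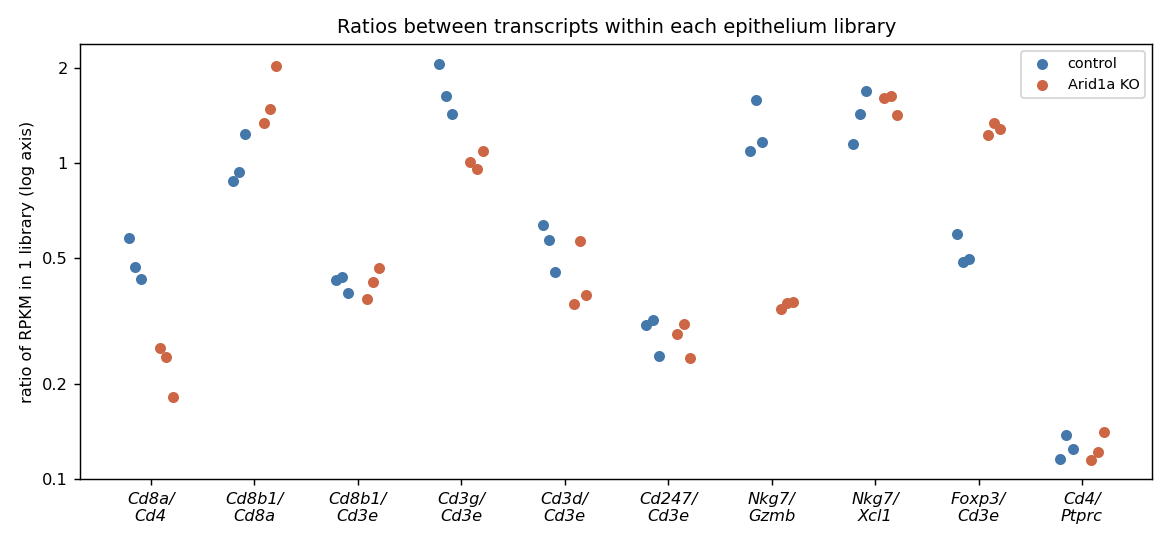
Ratio of the RPKM of 2 genes within each epithelium library (log axis), with control libraries to the left of each label and Arid1a KO libraries to the right. Cd8a/Cd4, Cd3g/Cd3e and Nkg7/Gzmb are lower and Cd8b1/Cd8a and Foxp3/Cd3e higher in the KO libraries without overlap, while Cd8b1/Cd3e, Cd3d/Cd3e, Cd247/Cd3e, Nkg7/Xcl1 and Cd4/Ptprc overlap. Shares of all tested genes with such ratios to Cd4, Cd8a or Gzmb were not computed.

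Transcripts of other leukocytes were present in the sorted cells and moved with the genotype labels. Ptprc was 30.3, 26.01 and 29.5 RPKM in controls A, B and C, and 56.2, 58.1 and 57.6 RPKM in KO libraries. It stood about level within each genotype, with a log2 difference of 0.98 ± 0.071 (SE, limma adjusted p = 5.4e-05). The pan-leukocyte list was not of 1 direction, since 5 of its 6 genes rose and Cd52, a surface protein of lymphocytes and other leukocytes, fell from 344 ± 26 to 161 ± 5.2 RPKM (SD, n = 3 each, log2 difference -1.09 ± 0.078, limma adjusted p = 5.1e-05). Coro1a, 1 of the 5, lost its call without control library A (limma adjusted p = 0.14), control library C (0.126), KO library A (0.0823) or KO library B (0.143). Cd52 was also measured in Myc-CaP (means of 4.65 TPM in EV and 3.25 TPM in KO libraries), where Ptprc had 0 to 2 reads. Its values in the sorted cells are thus not shown to come from leukocytes alone. The counts of the next lists stand beside 27.5% of all genes tested called higher and 29.6% called lower. The macrophage markers rose in 7 of 7 tested, with summed levels of 1564 to 1861 RPKM in controls and 2271 to 2760 RPKM in KO libraries. B cell and plasma cell markers rose in 6 of 7 tested (31.5 to 34.3 and 51.0 to 89.0 RPKM), neutrophil markers in 3 of 6 (336.8 to 474.3 and 383.1 to 631.1 RPKM) and dendritic cell markers in 2 of 7 (36.7 to 46.0 and 83.9 to 87.8 RPKM), a share near that of all genes. Mzb1, of the B cell and plasma cell list, lost its call in 5 of 15 alternative settings (limma adjusted p up to 0.087). Those included leaving out control library A or C, or KO library B or C. The dendritic sum was carried by Itgax, which macrophages also make (23.5 ± 1.6 to 69.4 ± 2.6 RPKM), Siglech rose as well, and Flt3, Zbtb46, Xcr1, Clec9a and Cd209a did not pass. Mast cell markers fell in 5 of 6 (277.6 to 319.3 and 50.8 to 90.3 RPKM). Epcam, the epithelial marker of the sort, was 279.3, 351.2 and 281.3 RPKM in controls and 183.1, 194.2 and 224.7 RPKM in KO libraries, a log2 difference of -0.59 ± 0.119 (limma adjusted p = 0.00409). The 5 epithelial markers did not move together, as Krt5, a basal keratin, rose from 302 ± 42 to 762 ± 76 RPKM (log2 difference 1.34 ± 0.124, limma adjusted p = 0.00013), Krt8 and Cdh1 did not pass, and Krt18 fell by 0.37 with a call lost under scaling to the same sum (adjusted p = 0.065). No leukocyte marker list here was at 0 in the epithelium, and the part of these cells in the members' values was not tested.

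Relative to Ptprc in the same library, 9 of 10 members were lower in all 3 KO libraries. Since 84.1% of tested genes were lower in that ratio too and 4.16% higher, the rest overlapped and the count is near the background. The 1 member that overlapped is near that background as well, and neither is a result about the members. Cd4 per Ptprc was 0.116, 0.138 and 0.124 in controls and 0.115, 0.122 and 0.141 in KO libraries, overlapping throughout. Nkg7 per Ptprc was lowest in proportion, at 0.199, 0.283 and 0.230 in controls and 0.0431, 0.0504 and 0.0393 in KO libraries, or 0.187-fold. Between these, Cd3e and Cd8b1 were at 0.726-fold and 0.733-fold, Gzmb at 0.669-fold, Cd3d at 0.578-fold, and Cd8a, Cd3g, Gzma and Prf1 between 0.352-fold and 0.460-fold.

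The wider receptor pathway was tested with a list of 23 genes. Of 21 tested, 12 rose and 3 fell, or 71.4% called beside 57.1% of all genes tested (27.5% higher and 29.6% lower), with a median log2 difference of 0.32. Those that rose included Lck (4.14 ± 0.35 to 8.43 ± 0.23 RPKM, SD, n = 3 each, log2 difference 0.88 ± 0.076 SE), the adaptor Lcp2 (1.02 ± 0.067), the surface receptors Cd6 (0.93 ± 0.101), Cd5 (0.86 ± 0.177) and Cd2 (0.66 ± 0.134) and the costimulator Icos (0.83 ± 0.136), with limma adjusted p between 3.6e-05 and 0.00475. The kinases and adaptors were not uniform, since Zap70, the kinase that docks on the CD3 chains, was 2.51 ± 0.036 and 2.45 ± 0.26 RPKM and did not pass (limma adjusted p = 0.796).

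The receptor chains themselves differed in direction. Trac, the constant part of the alpha chain, rose from 7.23 ± 1.01 to 11.3 ± 1.5 RPKM (log2 difference 0.58 ± 0.121, limma adjusted p = 0.00483), and Trdc, the delta chain of gamma-delta T cells, fell from 1.43 ± 0.28 to 0.684 ± 0.15 RPKM (-0.53 ± 0.117, adjusted p = 0.00643). Trbc1, a beta chain, was 8.39, 12.6 and 7.73 RPKM in controls and 6.71, 6.27 and 5.42 RPKM in KO libraries (limma adjusted p = 0.0251), but its call was lost without KO library B (0.0582) or KO library C (0.075) and when libraries were scaled to the same sum (0.0562). Its near-identical copy Trbc2 did not pass (limma adjusted p = 0.0941), and counting could split reads between them. Thy1, the third that fell, is also made by stromal cells, and its call was lost without control library A (limma adjusted p = 0.0624) or control library C (0.0717) and under scaling to the same sum (0.175). Cd247, the zeta chain that completes the CD3 complex, was 1.28, 1.16 and 1.23 RPKM in controls and 1.74, 1.89 and 1.55 RPKM in KO libraries, without overlap. Its log2 difference was 0.30 ± 0.087 (limma adjusted p = 0.0213), a call lost without control library C (0.0576), KO library A (0.0599) or KO library B (0.0792).

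**Figure D3:**
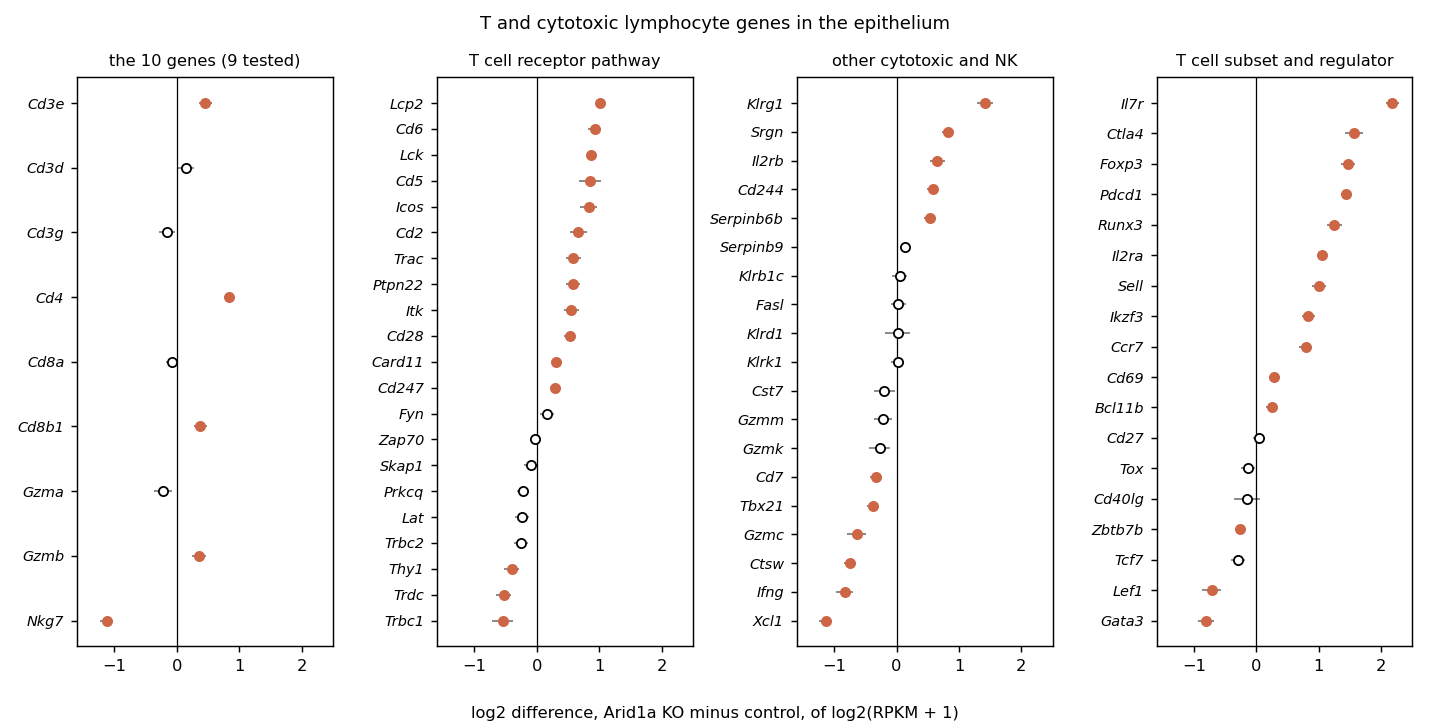
Log2 difference of log2(RPKM + 1), Arid1a KO minus control, with its SE as a line, for the tested members and the 3 related lists; filled points passed an adjusted p of 0.05 and open points did not. The lists hold both directions, from Il7r at 2.18 to Xcl1 at -1.14.

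A list of 28 other cytotoxic and NK genes held both directions. Of 19 tested, 5 rose and 6 fell (57.9% called), with a median log2 difference of 0.02. This share is near the 57.1% of all genes tested and is no result about the list, whose named genes are given for their own values. Xcl1, a chemokine made by NK cells and CD8 T cells, was 5.25, 5.16 and 4.03 RPKM in controls and 1.51, 1.81 and 1.59 RPKM in KO libraries, a log2 difference of -1.14 ± 0.107 (limma adjusted p = 0.00014). It fell as far as Nkg7, and the ratio of Nkg7 to Xcl1 overlapped between the genotypes (1.42 ± 0.27 and 1.55 ± 0.11, SD, n = 3 each). The interferon Ifng (log2 difference -0.83 ± 0.134, limma adjusted p = 0.00149, on 33 to 52 and 5 to 8 reads), the lymphocyte protease Ctsw (-0.75 ± 0.10, adjusted p = 0.00066) and granzyme C, Gzmc (-0.64 ± 0.150, adjusted p = 0.00823), fell with them. Tbx21, the T-bet factor of cytotoxic and type 1 lymphocytes, fell less (-0.38 ± 0.097, limma adjusted p = 0.0123). Its call was lost when a trend on gene length was removed (limma adjusted p = 0.129). Cd7 also fell (-0.33 ± 0.094, limma adjusted p = 0.0202), but that call was lost without control library A (0.0598), control library C (0.0725), KO library B (0.0718) or KO library C (0.0578) and under scaling to the same sum (0.18).

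Those that rose were Klrg1, an inhibitory receptor of NK and effector T cells (2.35 ± 0.18 to 8.04 ± 1.5 RPKM, log2 difference 1.42 ± 0.125, limma adjusted p = 0.000105), the granule proteoglycan Srgn, which many leukocytes make, the cytokine receptor chain Il2rb, the NK receptor Cd244 and the protease inhibitor Serpinb6b, with log2 differences between 0.54 and 0.83. The NK receptors Klrb1c, Klrd1 and Klrk1 had log2 differences between 0.02 and 0.05 and did not pass. Ncr1, which marks NK cells most closely, lay under the test's minimum at 20, 9 and 29 reads in controls and 7, 9 and 3 reads in KO libraries. Its groups met at 9 reads.

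A list of 18 T cell subset and regulator genes was all above the minimum, and 11 rose and 3 fell (77.8% called, beside 57.1% of all genes tested), with a median log2 difference of 0.54. Foxp3, the defining factor of regulatory T cells, was 2.49, 1.76 and 2.49 RPKM in controls and 7.45, 8.18 and 8.19 RPKM in KO libraries, far apart, with a log2 difference of 1.47 ± 0.109 (SE, limma adjusted p = 5.7e-05). Relative to Cd3e in the same library Foxp3 was 0.596, 0.487 and 0.497 in controls and 1.23, 1.34 and 1.28 in KO libraries. Such a higher ratio to Cd3e without overlap was found for 8.77% of all tested genes. Foxp3 also had 76 to 104 reads in the Myc-CaP libraries, where Cd3e had 0, so this ratio is not shown to be that of T cells alone. Ctla4 (log2 difference 1.56 ± 0.146), Pdcd1 (1.43 ± 0.076) and Il2ra (1.05 ± 0.084), the inhibitory receptors CTLA-4 and PD-1 and the alpha chain of the IL-2 receptor, rose too, and Il7r, the IL-7 receptor chain of memory and naive T cells, rose most (2.77 ± 0.51 to 16.0 ± 0.56 RPKM, 2.18 ± 0.105), with limma adjusted p between 1.1e-05 and 0.00014. Gata3 (-0.81 ± 0.129) and Lef1 (-0.72 ± 0.152) fell, and Zbtb7b fell by 0.27 with a call that was lost without control library A (limma adjusted p = 0.0527), KO library A (0.0528) or KO library B (0.0557) and under scaling to the same sum (0.316). Gata3 is also a factor of prostate epithelium.

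In Myc-CaP the 10 transcripts were all but absent. Both EV libraries had 0 reads for all 10 genes, KO library 1 had 3 reads in all (1 each of Cd4, Cd8a and Gzmb) and KO library 2 had 1 read, of Cd8a. The remaining 7 members had 0 reads in all 4 libraries, which allows up to 3 reads in each, and no member reached the minimum mean, so none was tested. Together the 10 genes held 0.157 and 0.0558 RPM in the KO libraries, against 53.9 to 74.6 in the sorted epithelium, and a count of 0 allows 0.149 and 0.166 in the EV libraries. Counting intervals and floors cover counting error only, and the TPM and RPKM tables were scaled separately. Ptprc had 2 reads in EV library 2 and 0 in the other 3.

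**Figure D4:**
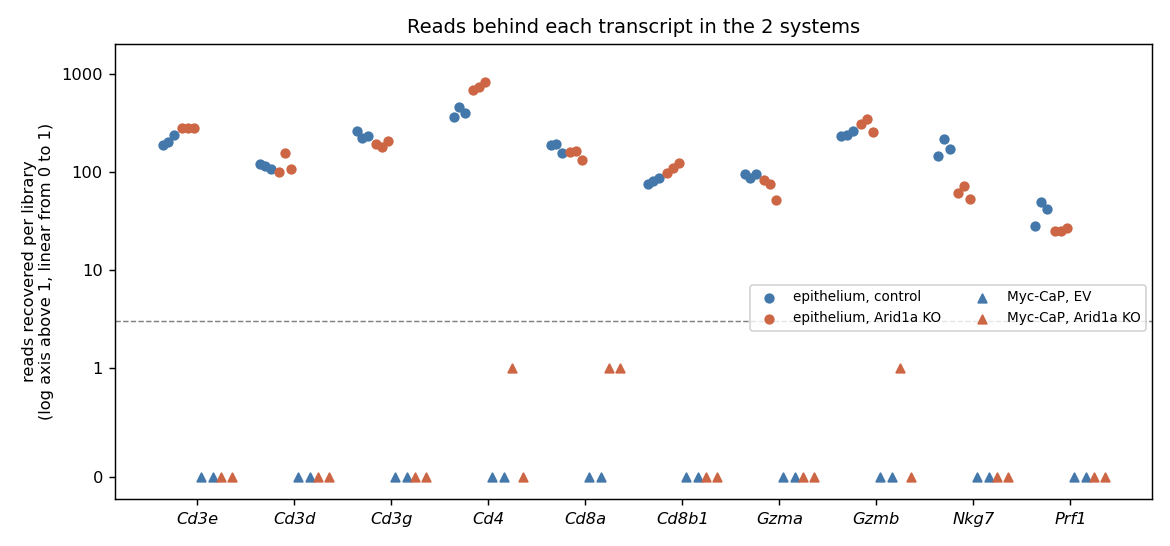
Reads recovered for each of the 10 genes in every library (vertical axis logarithmic above 1 and linear from 0 to 1), with circles for the epithelium, triangles for Myc-CaP, blue for control or EV and red for Arid1a KO; the dashed line is the 3 reads that a count of 0 allows. Every epithelium library lies at 25 reads or more and every Myc-CaP library at 0 or 1.

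The line was not free of all lymphocyte-associated transcripts. Of the receptor pathway list, 6 of 23 genes passed the minimum. Cd247 had 250 and 256 reads in EV and 201 and 205 in KO libraries, and Foxp3 had 85 and 104 reads in EV and 84 and 76 in KO libraries, although Cd3e was at 0. Trdc was 8.25 and 9.85 TPM in EV and 30.7 and 31.1 TPM in KO libraries (log2 difference 1.67 ± 0.104, limma adjusted p = 0.00396), with 6.43% of the 13974 genes tested called. Ptpn22, a phosphatase of receptor signalling, rose as well (0.87 ± 0.150, limma adjusted p = 0.0404), as did Gata3, Serpinb9 and Serpinb6b of the other lists. Cd247, Foxp3 and Trdc were thus measured in a line with 0 reads of Cd3e, Cd3d and Cd3g. Of the defining epithelial markers, Epcam had 0 to 2 reads and Cdh1 0 to 13 in the 4 libraries of the line. Krt8 was low in EV libraries, at 1.07 and 0.790 TPM, and rose to 40.3 and 38.8 TPM in KO libraries (log2 difference 4.40 ± 0.118, limma adjusted p = 0.00135).

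Over the 6 epithelium libraries, the genes whose log2(RPKM + 1) followed the members most closely were not lymphocyte genes by name. For Cd3e they were Sf3a1 (Pearson r = 0.997), the unnamed ENSMUSG00000086507.1 and Prkar2a. For Cd4 they were Mob1b (r = 0.9993), LOC108167732 and ENSMUSG00000103593.1, and for Nkg7 they were Aamdc (r = 0.9991), Gnmt and Pik3r2. With 6 libraries in 2 groups such values are common: 478, 1487 and 1340 of 16272 other genes had r above 0.95 with Cd3e, Cd4 and Nkg7, and all points share the genotype labels and library scaling.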

How the data were processed

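RNA from 10 mouse samples in 4 groups, taken from the genotype labels, was sequenced. The study's methods state alignment to GRCm38 with TopHat2 and strand-specific counting with HTSeq-count 0.13.5, while the submitters' processing notes name HISAT2, HTSeq, DESeq2 and mm10. The authors deposited RPKM for the epithelium and TPM for Myc-CaP, 48897 rows each, and the gene lengths and annotation behind them are not given in the sources used here. All samples carry the same growth and treatment text. The methods give 3 mice per genotype for the sorted cells. Nothing says that the Myc-CaP replicates are separate cultures, so their p-values measure the spread between these samples, which may be technical.

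Each table was tested on its own with limma 3.58.1 (R 4.3.3) on log2(value + 1), keeping genes with a mean of at least 0.5, with eBayes and a trend, two-sided p and Benjamini-Hochberg adjustment over all genes tested, and calls were made at an adjusted p under 0.05. Ratios of RPKM between libraries gave the worth of 1 read, and the smallest whole numbers that fit were taken as reads (33808 of 33813 genes, 99.985%, within 0.001 of a whole number). With the same gene lengths, 98.54% of Myc-CaP values under 50 reads were whole within 0.05. Counting intervals are exact Poisson at 95%. A limma-voom fit of those reads, chosen after seeing the data, called 10728 of 19286 genes. The scripts were tested on simulated data.

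The 10 members and all lists were chosen with earlier results of these data known. 1 gene of the T cell subset list and part of the genotype are not reported here, and the list is counted without that gene. All 10 members are described. List genes are named where they passed the test or define a cell type, and the 3 genes most like Cd3e and the largest called rise and fall are named by Pearson r. Alternatives were the pseudocount, the minimum mean, scaling, quantile normalization, a gene length trend, a block, each library left out and the study's thresholds.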

Additional observations from a re-analysis of the deposited data

Results flagged for a closer look

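For 4 genes of the lymphocyte lists the values of the 2 groups did not overlap in either system and the signs were opposite in the epithelium and in Myc-CaP. The difference between the systems was not tested, and an exact two-sided permutation test of 2 libraries against 2 cannot go below p = 0.333. Cd247 had a log2 difference (Arid1a KO minus control) of 0.30 in the epithelium and -0.22 in Myc-CaP, where it did not pass (limma adjusted p = 0.432). Trdc had -0.53 in the epithelium and 1.67 in Myc-CaP. Tcf7, a factor of naive T cells, had -0.30 in the epithelium and 0.55 in Myc-CaP, and it passed the test in neither. Gata3 had -0.81 in the epithelium and 0.47 in Myc-CaP. None of the 10 members could be compared in this way, since none was tested in Myc-CaP.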

How the results depend on the processing

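In the epithelium, 5 of 9 members passed the test (4 higher). With no minimum mean 3 passed (2 higher), because Cd8b1 and Gzmb were lost among more genes tested, and at the study's thresholds (unadjusted p under 0.05 and a change of 1.5-fold) 2 passed (1 higher). Those thresholds left 6 of 15 calls in the receptor pathway list and 7 of 11 in the other cytotoxic and NK list. Leaving out each library gave 4 to 5 members called. Cd3d turned to -0.0033 without Arid1a KO library B (range without single libraries -0.0033 to 0.24), Cd8a to 0.040 after scaling to the same sum and 0.0081 after removing a length trend, and Gzma to 0.039 after the latter, and none of these passed. The cause of these turns was not tested. Removing the length trend raised the log2 difference of every tested member. Cd8b1 went from 0.38 to 0.63, Gzmb from 0.36 to 0.62 and Nkg7 from -1.13 to -0.87, and their calls stayed. Cd3d went from 0.14 to 0.37 and did not pass (limma adjusted p = 0.0704). Of the values of the 9 tested members under 16 alternatives, 129 kept their direction and side of the threshold, 11 lost the call and 4 turned. Same-lettered libraries did not deviate together (Pearson r 0.041, 0.0094 and -0.057), so the letters were not taken as pairs. A replicate block gave 4 members called, with Gzmb lost (adjusted p = 0.0587), and Cd247 of the receptor pathway list was lost too (0.0526). In Myc-CaP limma called 0 members under any setting. With no minimum mean 3 members could be tested there, the lowest unadjusted p being 0.266 for Cd8a, and under the other settings, the block included, none could. The lowest depth behind a member was that of Prf1, with 25 to 49 reads a library.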
